A study of Glycine max with 14 samples.

Results

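The genes described here are the 2 dihydroflavonol reductase genes of the soybean anthocyanin pathway that the study followed in the seed coat, DFR1 (Glyma14g07940) and DFR2 (Glyma17g37060). They were taken by locus name, a rule that uses no measured value, and are 2 of the 61337 loci listed. Each has 1 gene model (Glyma14g07940.1 and Glyma17g37060.1), placed by its name on chromosomes 14 and 17, and the RefSeq gene table lists DFR1 and DFR2 on the same chromosomes with the flower color synonyms W3 and W4. In the 14 libraries, DFR1 accounted for 59998 reads and DFR2 for 2365.

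RNA-Seq was carried out on seed coats dissected from greenhouse-grown Glycine max, with 7 libraries from a black-seeded line and 7 from a brown-seeded line. The question of the design is which anthocyanin genes differ between these lines as the seed grows and dries. RM30-R* is a stable black revertant that arose from the variegated line RM55-r(m), is homozygous for the R* allele, and still carries the CACTA transposon TgmR* in Intron2 of the R gene, which encodes a MYB transcription factor. RM38-r is the brown recurrent parent, homozygous for a recessive r allele without TgmR* in which a missing C shifts the reading frame and shortens the MYB protein. Seeds were staged by the fresh weight of the whole seed. The cotyledons were green in the stages of 100–200 mg, 200–300 mg, 300–400 mg and 400–500 mg, and a desiccating stage followed at which the weight was back to 300–400 mg. The 300–400 mg and 400–500 mg stages have 2 libraries per line, and the other 3 stages have 1 per line and no replicate check. The paper calls the second 400–500 mg libraries a biological replicate, with RNA extracted and sequenced independently. How many plants or seeds a library holds is not given in the sources used here, so how much of the spread between replicates is technical is not known.

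Dihydroflavonol reductase reduces dihydroflavonols to leucoanthocyanidins. It acts after flavanone 3-hydroxylase (F3H), which makes the dihydroflavonols, and before anthocyanidin synthase (ANS), which makes the colored anthocyanidins. The same leucoanthocyanidins also feed the proanthocyanidins of brown seed coats. In soybean, W3 and W4 are known as loci that act together on purple flower color.

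The values are RPKM, read counts divided by the length of the gene model and by the counted alignments of the library, in which a read may count more than once. Low values come in whole multiples of 1 read, so that the reads behind each value could be recovered. The libraries hold 49509769 to 120239044 counted alignments. Replicate 1 of RM38-r stood apart at both replicated stages, since the 10 highest gene models took 22.5% of the summed RPKM at 300–400 mg and 11.5% at 400–500 mg, against 3.76 to 7.62% in the other 12 libraries. The scaling of a library cancels in its ratio of DFR2 to DFR1. Whether the make-up of these RM38-r libraries affected that ratio was not tested. A list of 11 loci, 10 of them in the values used, taken as embryo storage and seed protein genes summed to between 44.5 and 921 RPKM in RM30-R* libraries and between 69.9 and 1393 RPKM in RM38-r libraries, with the highest sum of each line at 200–300 mg. Most of these highest sums came from 1 locus, taken as a beta-conglycinin gene, at 730 and 1030 RPKM. Some other members, such as the lipoxygenase locus LOX3, were highest at other stages. A pair of loci taken as seed coat markers summed to 4.18 RPKM in the desiccating library of RM30-R* and 0.549 RPKM in that of RM38-r, against sums of up to 1023 and 929 RPKM at 100–200 mg. At 400–500 mg this sum was 13.9 and 181 RPKM in replicates 1 and 2 of RM30-R*, against 19.4 and 146 RPKM in those of RM38-r, so that it was low in the replicate with the higher DFR2 share of each line. Nearly all of the sum comes from 1 of the loci, since the other reached at most 0.616 RPKM. The part of these shifts in the results was not tested, and in whole seed coats fewer cells of a type and less RNA per cell cannot be told apart. The R gene itself was low, with a median of 0.338 RPKM over the RM30-R* libraries and 0.906 RPKM over the RM38-r libraries.

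DFR1 was the predominant copy in seed coats with green cotyledons of both lines and was lowest in desiccating seed coats. In RM30-R* it had 76.2 RPKM at 100–200 mg, 66.1 at 200–300 mg, 60.2 and 72.1 at 300–400 mg, 45.8 and 29.3 at 400–500 mg and 2.64 at desiccation. In RM38-r it had 77.0 RPKM at 100–200 mg, 35.2 at 200–300 mg, 15.3 and 28.2 at 300–400 mg, 14.6 and 39.2 at 400–500 mg and 1.52 at desiccation. The lines differed by less than the counting error at 100–200 mg, did not overlap at 300–400 mg, and overlapped at 400–500 mg, where replicate 2 of RM38-r lay above replicate 2 of RM30-R*. The means in RM30-R* were 66.2 ± 8.46 RPKM at 300–400 mg and 37.6 ± 11.6 RPKM at 400–500 mg (SD, n = 2 each). The same stages of RM38-r had 21.8 ± 9.15 and 26.9 ± 17.4 RPKM (SD, n = 2 each). Ordered by level in RM30-R*, 100–200 mg came first, then 300–400 and 200–300 mg, which did not differ beyond the spread of the replicates, then 400–500 mg and desiccation. In RM38-r, 100–200 mg was highest and desiccation lowest, and the stages between them did not separate, because the 200–300 mg value lay within the range of the 400–500 mg replicates and that range enclosed both 300–400 mg values.

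DFR2 was far lower than DFR1 at the green stages and had a different course in time, with its lowest values at 300–400 mg in both lines. In RM30-R* it had 4.71 RPKM at 100–200 mg, 1.19 at 200–300 mg, 0.333 and 0.417 at 300–400 mg, 3.92 and 1.41 at 400–500 mg and 2.87 at desiccation. In RM38-r it had 3.56 RPKM at 100–200 mg, 1.65 at 200–300 mg, 0.0598 and 0.110 at 300–400 mg, 0.353 and 0.274 at 400–500 mg and 0.147 at desiccation. At 300–400 mg, at 400–500 mg and at desiccation, each RM30-R* library lay above each RM38-r library of the same stage, and at 200–300 mg the RM38-r library was higher. The replicated means were 0.375 ± 0.0593 and 2.67 ± 1.77 RPKM in RM30-R* seed coats at 300–400 and 400–500 mg, against 0.0851 ± 0.0358 and 0.314 ± 0.0560 RPKM in RM38-r seed coats (SD, n = 2 each). Ordered by level, RM30-R* had 100–200 mg, desiccation, 400–500 mg, 200–300 mg and 300–400 mg, with the desiccating value between the 400–500 mg replicates. The 200–300 mg value lay below both of these replicates, and its 95% Wilson interval (0.988 to 1.42 RPKM) overlapped that of the lower one (1.19 to 1.68 RPKM). The order in RM38-r was 100–200 mg, 200–300 mg, 400–500 mg, desiccation and 300–400 mg. Of these, the desiccating value had a 95% Wilson interval of 0.0821 to 0.263 RPKM, which overlapped those of both 300–400 mg and both 400–500 mg replicates, so that it was not distinct from them at this depth.

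**Figure D1:**
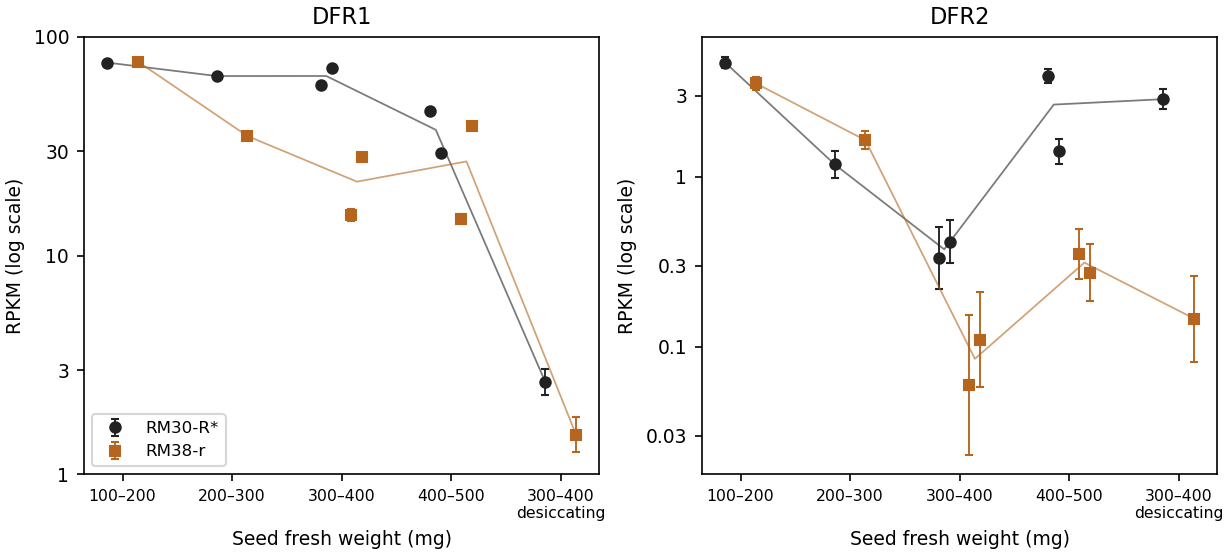
RPKM of DFR1 and of DFR2 in each library (log scales, different in the panels) by seed fresh weight, with RM30-R* as black circles and RM38-r as brown squares. Bars are 95% Wilson intervals of the reads (counting error only) and lines join the stage means. DFR1 ended at 2.64 RPKM in RM30-R* seed coats and 1.52 RPKM in RM38-r seed coats, while DFR2 ended at 2.87 and 0.147 RPKM.

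The low DFR2 values rest on few reads. At 300–400 mg, DFR2 had 21 and 43 reads in RM30-R* and 4 and 9 in RM38-r. Its largest count was 604 reads, in RM30-R* at 100–200 mg. A read was counted at every gene model it aligned to with up to 3 mismatches, so that a read of one copy could also be counted for the other. The smallest DFR2 count relative to DFR1, 9 against 2325 reads in replicate 2 of RM38-r at 300–400 mg, bounds this in 1 direction, since any DFR1 read also counted for DFR2 would be among the 9. They come to 0.387% of the DFR1 reads (exact 95% interval 0.177 to 0.734%). At 300–400 mg, the DFR2 reads came to 0.548 and 0.572% of the DFR1 reads in RM30-R* and 0.387% in both RM38-r libraries. In replicate 2 of RM38-r at 400–500 mg they came to 0.691%. All of these values lie within that interval. How far the DFR2 values of these libraries consist of DFR1 reads was not tested. How many DFR2 reads were also counted for DFR1 was not tested.

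The DFR2 share, its percentage of the summed RPKM of both copies, does not depend on how a library is scaled. In RM30-R* the share was 5.83% at 100–200 mg, 1.76% at 200–300 mg, 0.551 and 0.575% at 300–400 mg, 7.88 and 4.60% at 400–500 mg and 52.1% at desiccation. In RM38-r it was 4.41% at 100–200 mg, 4.47% at 200–300 mg, 0.390 and 0.390% at 300–400 mg, 2.36 and 0.693% at 400–500 mg and 8.81% at desiccation. In both lines the share was smallest at 300–400 mg and largest at desiccation. The desiccating RM30-R* library was the only one of the 14 in which DFR2 exceeded DFR1, though its 95% Wilson interval (47.3 to 56.9%) includes equal levels. The 95% Wilson intervals of the lines overlapped at 300–400 mg and not at the other stages, where they ran from 47.3 to 56.9% in RM30-R* and from 4.99 to 15.1% in RM38-r at desiccation, for example. At 200–300 mg the order was the other way, with 1.47 to 2.11% in RM30-R* and 3.96 to 5.04% in RM38-r. These intervals cover counting error only, and PCR copies are not independent molecules.

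**Figure D2:**
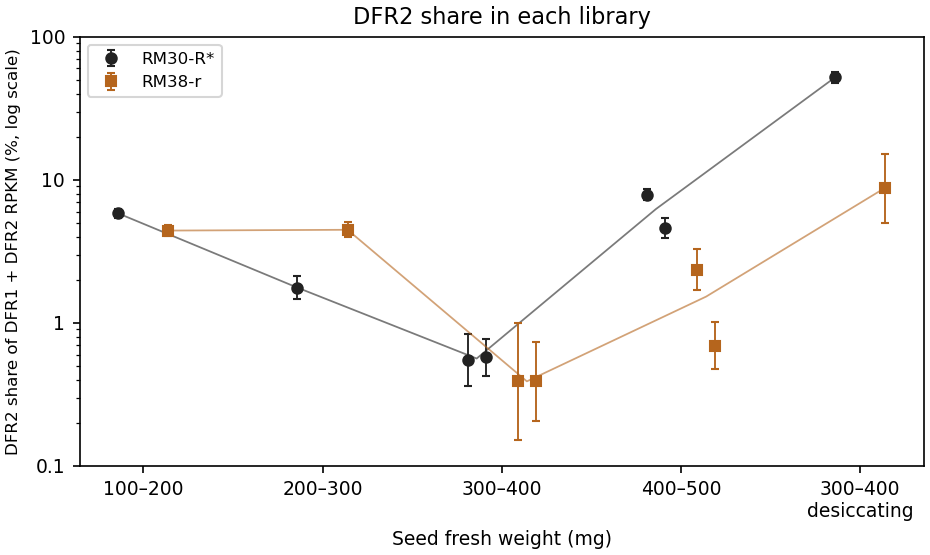
DFR2 share of the summed DFR1 and DFR2 RPKM (%, log scale) in each library by seed fresh weight, with RM30-R* as black circles and RM38-r as brown squares. Bars are 95% Wilson intervals of the reads and lines join the stage means. The share was lowest at 300–400 mg in both lines and reached 52.1% in RM30-R* and 8.81% in RM38-r at desiccation.

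At desiccation the share was 50.3 percentage points higher than at 200–300 mg in RM30-R* (95% Newcombe interval 45.5 to 55.1) and 4.34 percentage points higher in RM38-r (0.480 to 10.6). On the log2 scale the ratio of DFR2 to DFR1 changed by 5.92 in RM30-R* and by 1.05 in RM38-r. DFR1 at desiccation was 0.0399 times its 200–300 mg level in RM30-R* and 0.0432 times in RM38-r. For DFR2, desiccating RM30-R* seed coats had 2.42 times the 200–300 mg level and desiccating RM38-r seed coats 0.0893 times. Each of these stages has 1 library per line, so the intervals compare libraries and not stages. The desiccating values come from 213 DFR2 and 198 DFR1 reads in RM30-R* and from 11 and 115 reads in RM38-r. In a limma fit to all 14 libraries, in which single libraries were assumed to vary like the replicated groups, the change of DFR1 was −4.41 in RM30-R* (SE 0.75, limma adjusted p = 0.0689) and −4.14 in RM38-r (SE 0.75, limma adjusted p = 0.0624), on the log2(RPKM + 0.5) scale. For DFR2 it was 1.00 in RM30-R* (SE 0.54, limma adjusted p = 0.575) and −1.73 in RM38-r (SE 0.54, limma adjusted p = 0.197, and −2.82 with a pseudocount of 0.1). Neither gene passed the adjusted threshold of 0.05 in either line, where 1.15% of 44080 gene models passed in RM30-R* and 1.92% in RM38-r (5469 and 7386 gene models had an unadjusted p under 0.05). With libraries rescaled to equal 75th percentiles, DFR1 passed in both lines (limma adjusted p = 0.0274 in RM30-R* and 0.0255 in RM38-r), as did 2.92% of all gene models in RM30-R* and 5.17% in RM38-r. It also passed with quantile normalization, as did 3.43% and 5.7%, and over all alternatives its adjusted p ranged from 0.0224 to 0.145 in RM30-R* and from 0.0203 to 0.126 in RM38-r. The difference between the lines in the DFR2 change was 2.73 (SE 0.76, 95% interval 0.86 to 4.60). Its limma adjusted p was 1.00, in a comparison in which 0.0272% of gene models passed and 776 had an unadjusted p under 0.05. That of DFR1 was −0.27 (95% interval −2.86 to 2.33).

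Between the replicated stages, both 400–500 mg libraries of a line had a higher share than both of its 300–400 mg libraries. In RM38-r this held only within the counting error for replicate 2 of 400–500 mg. Its Wilson interval (0.473 to 1.01%) overlapped those of both 300–400 mg libraries (0.152 to 0.998% and 0.205 to 0.739%). Over both lines the difference, 400–500 minus 300–400 mg, was 3.41 percentage points (two-sided exact permutation p = 0.0556, the smallest that its 36 arrangements allow, or 0.111 adjusted over 2 tests). The DFR2 change was 1.73 in RM30-R* (SE 0.38, limma adjusted p = 0.288) and 0.48 in RM38-r (SE 0.38, limma adjusted p = 0.713) on the log2(RPKM + 0.5) scale, which understates the change of low values. With a pseudocount of 0.1 these were 2.38 and 1.17, and without replicate 1 of RM30-R* at 400–500 mg the change in RM30-R* was 1.13. That of DFR1 was −0.84 in RM30-R* (SE 0.47, limma adjusted p = 1.00) and 0.20 in RM38-r (SE 0.47, limma adjusted p = 0.863). None of these passed, against 0.00744% of 40334 gene models in RM30-R* and 0.0223% in RM38-r, where 2030 and 2971 had an unadjusted p under 0.05. The DFR1 change in RM38-r took the opposite sign with rescaled libraries (−0.050 with equal 75th percentiles) and without replicate 1 of 300–400 mg (−0.23) or replicate 2 of 400–500 mg (−0.49).

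Between the lines, libraries of the same stage were set side by side as 7 pairs. DFR2 was higher in RM30-R* in 6 of 7 pairs, by 1.33-fold at 100–200 mg, 5.57-fold and 3.78-fold at 300–400 mg, 11.1-fold and 5.17-fold at 400–500 mg and 19.5-fold at desiccation, and had a ratio of 0.720 at 200–300 mg. DFR1 was higher in RM30-R* in 5 of 7 pairs, with ratios of 0.990 at 100–200 mg, 1.88 at 200–300 mg, 3.93 and 2.56 at 300–400 mg, 3.13 and 0.747 at 400–500 mg and 1.74 at desiccation. With rescaled libraries the ratio of DFR1 at 100–200 mg was 1.02, and DFR1 was then higher in 6 pairs. Rescaling to equal 75th percentiles also lowered the ratios of replicate 1 at 300–400 mg, whose RM38-r library stood apart, to 3.63 for DFR2 and 2.57 for DFR1. The line ratio of DFR2 exceeded that of DFR1 in each pair but that of 200–300 mg, so that the DFR2 share was higher in RM30-R* in 6 of 7 pairs. How usual such pair counts, or such gaps between the replicates of the lines, are among all gene models was not tested. The part of DFR1 reads also counted for DFR2 in the 300–400 mg ratios, and in that of replicate 2 at 400–500 mg, was not tested either. On the log2 scale of the limma fit, the median line difference of all gene models was 0.33 at 300–400 mg and 0.11 at 400–500 mg. With equal 75th percentiles these medians were 0.04 and 0.002.

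**Figure D3:**
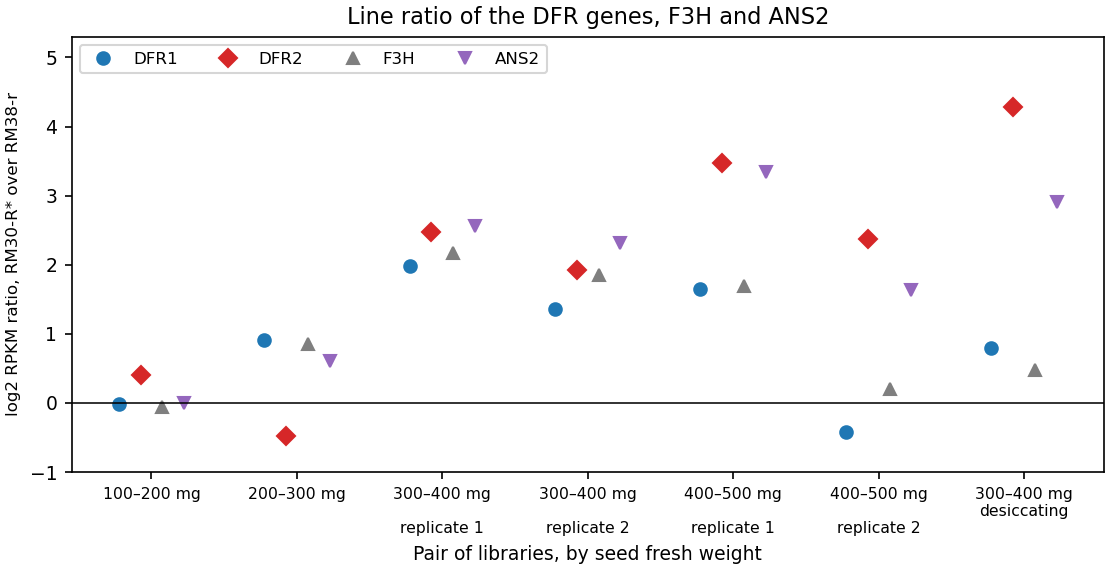
Log2 ratio of RPKM, RM30-R* over RM38-r, in the 7 pairs of libraries for DFR1, DFR2, F3H and ANS2. Points above 0 are higher in RM30-R*. DFR2 reached a 19.5-fold ratio at desiccation, where DFR1 had 1.74 and ANS2 7.49. At 200–300 mg DFR2 was below 0, as were 4 pathway genes that are not drawn (F3′5′H, UGT78K1, UGT78K2 and CHI1A).

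Averaged over libraries, the share was 7.39 percentage points higher in RM30-R* (two-sided exact permutation within stages, p = 0.132, also 0.132 adjusted over 2 tests). This difference rests mostly on the desiccating stage. Without that stage it was 1.41 percentage points (exact permutation p = 0.264), and over the replicated stages alone it was 2.45 percentage points (exact permutation p = 0.0556, the smallest possible there). At 300–400 mg the share was 0.563 ± 0.0172% in RM30-R* and 0.390% in both RM38-r libraries, which rest on 4 and 9 DFR2 reads, and the lines were not apart beyond the counting error. The lines did not overlap at the later replicated stage, with 6.24 ± 2.32% in RM30-R*, against 1.52 ± 1.18% in RM38-r (SD, n = 2 each).

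In the limma fit to the 8 libraries of the replicated stages, the line difference of DFR1 was 1.64 at 300–400 mg (SE 0.47, limma adjusted p = 0.214) and 0.60 at 400–500 mg (SE 0.47, limma adjusted p = 1.00), in log2(RPKM + 0.5). That of DFR2 was 0.58 at 300–400 mg (SE 0.38, limma adjusted p = 0.515, and 1.37 with a pseudocount of 0.1 or 0.34 with 1) and 1.84 at 400–500 mg (SE 0.38, limma adjusted p = 1.00). Neither copy passed at either stage, where 0.0298% and 0% of 40334 gene models passed and 4737 and 141 had an unadjusted p under 0.05. By unadjusted p, DFR2 ranked 8 of all gene models tested at 400–500 mg. The average of both stages was 1.12 for DFR1 (SE 0.33, limma adjusted p = 0.387) and 1.21 for DFR2 (SE 0.27, limma adjusted p = 0.253, and 1.98 with a pseudocount of 0.1). The line difference changed between the stages by −1.04 for DFR1 (SE 0.66, 95% interval −2.52 to 0.44) and by 1.26 for DFR2 (SE 0.54, 95% interval 0.05 to 2.47), with a limma adjusted p of 0.995 for both. With 1 library left out these ranged from −1.74 to −0.34 for DFR1 and from 0.66, without replicate 1 of RM30-R* at 400–500 mg, to 1.86 for DFR2. For the average and for this interaction, 0% of gene models passed (3377 and 1298 had an unadjusted p under 0.05). With the library pair as a replicate block, 895, 178 and 10 gene models (2.22, 0.441 and 0.0248%) passed at 300–400 mg, for the average and for the interaction, and neither DFR copy was among them (limma adjusted p of DFR2 for the average 0.0704, with a range of 0.0704 to 0.700 over all alternatives). That block gave an SE of 0.31 for the DFR2 line difference at 400–500 mg. There 0% of gene models passed and 515 had an unadjusted p under 0.05. The main fit does not use the pairing, and its high adjusted p at 400–500 mg does not show that the lines were equal. Without replicate 1 of RM38-r at 400–500 mg, the line difference of DFR1 at that stage was −0.10, and that of DFR2 was 1.91.

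The other pathway genes were compared with both copies over the 14 libraries. Of the 14 genes listed for the pathway, 11 are described, and ANR1, ANR2 and CHI2 were not analysed here. With DFR1, Pearson's r of log2(RPKM + 0.5) was 0.90 for CHS7 and 0.87 for CHS8 (chalcone synthases, the entry to the pathway), 0.89 for F3H, 0.81 for F3′H, which hydroxylates the B-ring toward cyanidin, and 0.88 for AOMT, an anthocyanin O-methyltransferase that acts late. DFR2 had r of 0.49, 0.51, 0.59, 0.50 and 0.46 with the same genes. For 3 other pathway genes r was nearer between the copies, at 0.11 for DFR1 and −0.087 for DFR2 with CHI1A, a chalcone isomerase, −0.20 and −0.059 with the glucosyltransferase UGT78K2, and 0.52 and 0.49 with UGT78K1. DFR2 was nearer to the ANS genes, with r of 0.85 for ANS2 and 0.80 for ANS3, than DFR1 was, with 0.69 and 0.74. With F3′5′H, the hydroxylase of the delphinidin branch, r was 0.58 for DFR2 and −0.32 for DFR1. These values describe libraries that share line, stage and pairing, and differences between correlations were not tested. The added 0.5 RPKM flattens low DFR2 values, and r with other pseudocounts was not computed. Reads may also be counted at both ANS2 and ANS3, whose transcripts are closely similar, so their r values are not independent. The copies themselves had an r of 0.27 over 14 libraries, −0.29 within the 7 of RM30-R* and 0.60 within the 7 of RM38-r.

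**Figure D4:**
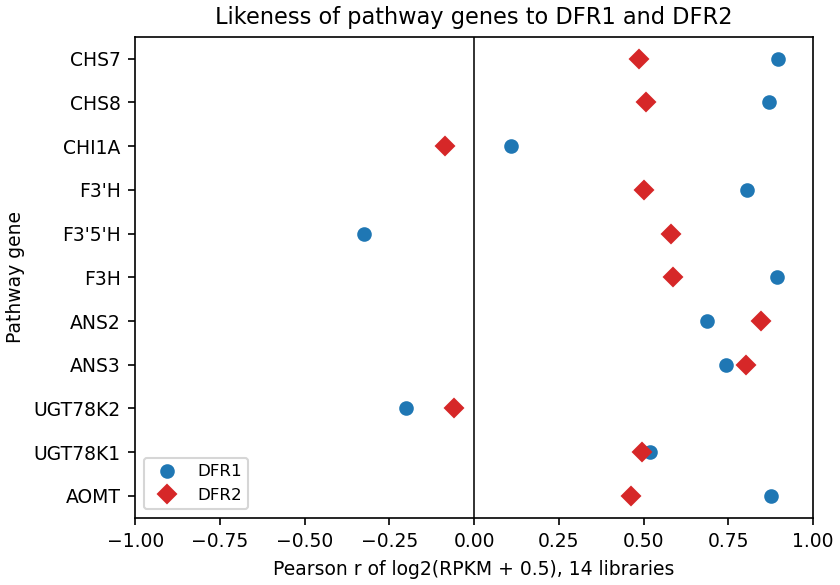
Pearson's r of log2(RPKM + 0.5) over 14 libraries between each of 11 pathway genes and DFR1 (blue circles) or DFR2 (red diamonds). ANS2 (0.85) and ANS3 (0.80) were the pathway genes most like DFR2, and CHS7 (0.90) and F3H (0.89) those most like DFR1.

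Among 35961 first gene models that reached 0.5 RPKM in 2 or more libraries, ANS2 ranked 5 and ANS3 ranked 33 by likeness to DFR2, behind Glyma06g04780.1 (r = 0.91) and Glyma20g23160.1 (r = 0.87). The models most like DFR1 were Glyma10g12400.1 and Glyma01g35540.1 (r = 0.98 for each), and CHS7 ranked 512. The limit from the added 0.5 RPKM also holds for the ranks by likeness to DFR2. As a group, the 11 pathway genes had a median line difference of 2.17 at 300–400 mg and 0.70 at 400–500 mg in log2(RPKM + 0.5), against 0.33 and 0.11 over all gene models tested, and 10 of 11 were above 0 at each stage (8 of 11 at 300–400 mg with equal 75th percentiles). At these stages 0 of 11 passed, and with the replicate block 7 were called higher at 300–400 mg, where 1.48% of all gene models were, and 0 at 400–500 mg. These 11 genes are not independent. Reads may be counted at both ANS2 and ANS3. CHS7 and CHS8 had like ratios of RM30-R* over RM38-r at 300–400 mg (5.12 and 5.42 in replicate 1, 4.35 and 4.38 in replicate 2). Whether reads were counted at both CHS genes was not tested. From 200–300 mg to desiccation 0 of 11 passed in RM30-R* and 1 fell in RM38-r, ANS3, by 4.16 on the same scale (limma adjusted p = 0.0461), where 0.51% of all gene models fell. With equal 75th percentiles 4 of 11 fell in each line, where 1.21% of all gene models fell in RM30-R* and 2.16% in RM38-r.

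The balance of the steps around DFR also varied with stage. Summed DFR RPKM per 100 RPKM of F3H was 24.8 at 100–200 mg in RM30-R* and 23.7 in RM38-r. It was highest at 300–400 mg, with 50.8 and 56.4 in RM30-R* and 58.1 and 79.3 in RM38-r, and at desiccation it was 27.2 in RM30-R* and 11.5 in RM38-r. The paper reports closely similar ANS2 and ANS3 transcripts, and a read could be counted at both. The ANS sum may therefore hold reads counted more than once, which would lower its ratios, and how many was not tested. Relative to the summed ANS2 and ANS3, the DFR sum was 2.00 and 1.66 times as high at 300–400 mg in RM30-R* and 3.62 and 3.55 times in RM38-r. At 400–500 mg these ratios were 0.661 and 0.800 in RM30-R* and 2.06 and 3.21 in RM38-r. The lines did not overlap at either of these stages, and how usual such gaps are among ratios of other genes was not tested. At desiccation the ratios were 0.267 in RM30-R* and 0.667 in RM38-r.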

How the data were processed

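Single reads of 100 nt were aligned by the authors with Bowtie 1 to 78773 Glyma1 gene models, with up to 3 mismatches and 25 alignments per read, and deposited as RPKM values. The complete gene models numbered 69425, and 1 incomplete last line was left out. Reads and counted alignments per library were recovered from the steps between low RPKM values, and 500 of 500 checked gene models under 5 RPKM gave whole reads within 0.01. The recovery and the limma fit were tested on simulated data. Groups came from the labels of line and stage.

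Shares were compared with two-sided exact permutation tests. RPKM values were compared with limma 3.58.1 (R 4.3.3) after a log2 transform with 0.5 RPKM added, fitting 1 mean to each group, with a trend in the moderated variance and Benjamini-Hochberg adjustment over all gene models that reached 0.5 RPKM in 2 or more libraries. The 8 libraries of the replicated stages served for line differences, and all 14 for desiccation. Permutation tests and intervals used scipy 1.17.1, pandas 2.3.3 and numpy 2.4.6 in Python 3.11.15, and plots matplotlib 3.10.9.

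Named genes were both DFR loci, the pathway genes of the study, and the 5 gene models most correlated with each copy, of which those without an annotation are named up to 2 per copy. The members and lists were chosen with earlier results of these data known. Libraries of the same stage with names from the same number series were taken as pairs. Their deviations from the group means correlated at 0.60 at 400–500 mg and 0.18 at 300–400 mg. The pair was therefore used as a replicate block in an alternative, while the main fits and tests did not use the pairing. Alternatives were other pseudocounts (0.1 and 1), filters, scalings and variance models, the block, and leaving out each library. RefSeq (Glycine_max_v4.0) served for gene symbols and chromosomes only. Promoter and protein sequences were not analysed here.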

Additional observations from a re-analysis of the deposited data

Results flagged for a closer look

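The line effect of each copy, as the log2 RPKM ratio of RM30-R* over RM38-r, had opposite signs at some stages, and the difference between the stages was not tested. For DFR1 the ratio was −0.01 at 100–200 mg, and the later stages differed from it by 0.93 at 200–300 mg, 1.68 at 300–400 mg and 0.81 at desiccation. With rescaled libraries the DFR1 ratio at 100–200 mg was 0.02, so these opposite signs do not hold in that scaling.

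For DFR2 the ratio was −0.47 at 200–300 mg. From 100–200 to 200–300 mg it changed by −0.88, and from 200–300 mg it differed by 2.67 at 300–400 mg, 3.39 at 400–500 mg and 4.76 at desiccation. The sum of the embryo list was at its highest in the same pair of 200–300 mg libraries, at 921 RPKM in the RM30-R* library and 1393 RPKM in the RM38-r library. Most of it came from 1 locus (730 and 1030 RPKM), and not every member was highest there. The part of the list in the result was not tested.

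The line effect on the DFR2 share, as a log2 ratio of shares, was −1.34 at 200–300 mg. It changed by −1.74 from 100–200 to 200–300 mg, and from 200–300 mg it differed by 1.87 at 300–400 mg, 3.58 at 400–500 mg and 3.91 at desiccation. Seen within the lines, the log2 share changed from 100–200 to 200–300 mg by −1.73 in RM30-R* and by 0.02 in RM38-r, a difference of −1.74. The stages of 100–200 mg, 200–300 mg and desiccation have 1 library per line.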

How the results depend on the processing

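Of 305 values of the 22 results on the DFR genes under alternatives, 296 kept direction and side of the threshold, 5 changed sign and 4 passed the threshold where the reported value did not. Part of the 296 could not have moved. The libraries left out were not in the comparisons with desiccation, so those sizes stayed the same. The stage test of the share cannot give p under 0.0556 (exact permutation), and the share change to desiccation had no test. The sign changes were the DFR1 change from 300–400 to 400–500 mg in RM38-r, at −0.050 with equal 75th percentiles and −0.030 with quantile normalization, and at −0.49 to 0.90 with 1 library left out, and the DFR1 line difference at 400–500 mg, at −0.10 to 1.30 with 1 library left out. The DFR1 change to desiccation passed at −4.46 in RM30-R* and −4.20 in RM38-r with equal 75th percentiles, and at −4.29 and −4.01 with quantile normalization. With the replicate block of library pairs, the share difference between the lines was 7.39 percentage points (exact sign-flip permutation p = 0.141), and no call of a DFR gene changed. On the log2 ratio scale that difference was 1.17 (exact permutation p = 0.0903), and with 1 library left out it was 7.22 to 7.98 percentage points. Counts of gene models past the threshold moved by more than 1.5 times. At 300–400 mg they were 12 as reported, 5 to 9 with other pseudocounts, 0 without a filter, 6 with a 1 RPKM filter or either scaling, 895 with the block and 0 to 497 with 1 library left out. For the average and the interaction they were 0 as reported, up to 178 and 10 with the block and up to 75 and 11 with 1 library left out, and at 400–500 mg 0, up to 2. From 300–400 to 400–500 mg they were 3 in RM30-R* (0 to 12) and 9 in RM38-r (0 to 191). For desiccation they were 508 in RM30-R* (210 to 1511), 846 in RM38-r (396 to 2511) and 12 for the difference (0 to 675). The shift in the median of all gene models between lines, 0.33 at 300–400 mg, was 0.04 with equal 75th percentiles. The sum over gene models of a locus gave the same values, since each locus has 1. Depth limits DFR2 most in RM38-r, where 4 to 34 reads stand behind its values from 300–400 mg on.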
